A study of Homo sapiens with 6 samples.

Results

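The proteasome genes of cultured U87 cells were compared between cells with and without a dominant negative form of IRE1alpha. A gene was taken as a member when its probe set carried a single symbol beginning with PSMA, PSMB, PSMC, PSMD or PSME and a number, and each gene was read from its brightest probe set. This gave 38 of 11964 genes on the array. 36 of them encode subunits, activators or accessory factors of the proteasome. The other two, PSMC3IP and PSME3IP1, match in letters only: they encode proteins named for binding PSMC3 and PSME3 and are given apart.

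U87 is a human glioblastoma cell line, and IRE1alpha, encoded by ERN1, is a sensor of protein folding stress in the endoplasmic reticulum. The IRE1dn group held 3 arrays of the clone called U87 IRE1.NCK DN, which carries a dominant negative IRE1alpha transgene. The ctrl group held 3 arrays of U87 cells carrying the empty plasmid, for which the labels write clones in the plural without assigning a clone to an array. All cells had been grown for 16 h in culture dishes in DMEM with 10% serum and glutamine, with no stress agent named, and the series was set up to find genes of invasion and angiogenesis. The labels name neither the promoter of the transgene nor separate cultures behind the replicates, so the p-values below rest on array-to-array spread that may be technical only, and a clone's own features cannot be told apart from the transgene.

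The proteasome degrades proteins tagged with ubiquitin. Its barrel-shaped 20S core is built of outer rings of alpha subunits (PSMA genes) and inner rings of beta subunits (PSMB genes), 3 of which cut the substrate. The 19S regulatory particle caps the barrel: its base holds a ring of ATPases (PSMC genes) that unfold the substrate and push it in, and its lid holds the deubiquitinating subunit. Cells exposed to interferon gamma make PSMB8, PSMB9 and PSMB10, which take the places of PSMB5, PSMB6 and PSMB7 and turn the core into the immunoproteasome, a form that favours peptides for presentation on MHC class I. The IRE1alpha pathway is known for raising genes that send misfolded proteins from the endoplasmic reticulum to the cytosolic proteasome.

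Array medians lay between 18.4 and 21.03 signal units on linear intensities that were already scaled to a common level, so a change shared by all transcripts would not be seen. Of 10 markers of glioblastoma or astroglial cells, summing to 6061 to 8828 units on IRE1dn arrays and 4551 to 5405 units on ctrl arrays, only VIM, CD44, CHI3L1 and NES were bright enough to test, and CHI3L1 was higher in IRE1dn cells (log2 change 1.63, limma adjusted p = 0.00988). GFAP, S100B, SOX2, FABP7, OLIG2 and PTPRZ1 had mean signals below the filter level, so these 6 did not bear out an astroglial identity; GFAP, S100B and PTPRZ1 lay under 2 units on every array. Leukocyte, endothelial and epithelial markers summed to at most 16.8, 10.4 and 4.76 units on IRE1dn arrays and to at most 12.9, 20.6 and 17.0 units on ctrl arrays. ERN1 averaged 11.1 ± 1.58 units on IRE1dn arrays and 12.3 ± 1.53 units on ctrl arrays (SD, n = 3 each), under the mean signal of 13.0 required for testing, and its probe set need not read the transgene, so it does not check the labels. The signal at the 3′ end over that at the 5′ end is a sign of RNA quality. For ACTB it was 1.64 on IRE1dn array 3 and between 1.09 and 1.21 on the others. For GAPDH it was 0.94 on IRE1dn array 3 and between 0.87 and 0.92 on the others. The part of RNA quality in the results was not tested, and counts without IRE1dn array 3 are given below.

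Proteasome transcripts were lower in IRE1dn cells. Of the 36 genes, all of which passed the filter on low signal, 19 fell and 0 rose at a limma adjusted p under 0.05 (IRE1dn minus ctrl, Benjamini-Hochberg over 7178 genes). Here and below, less RNA per cell and fewer cells that express a gene cannot be told apart. Over all genes tested, 16.5% were called lower and 17.9% higher. At an unadjusted p under 0.05, 22 of the 36 were lower and 0 higher, where 22.1% and 24.0% of all genes were. The median log2 change of the 36 genes was -0.46, against 0.01 over all genes tested, and 30 of the 36 had a value below 0. The 3 IRE1dn arrays lay entirely below the 3 ctrl arrays for 20 of the 36 genes and entirely above them for 0, where 24.2% and 26.0% of all genes did so.

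The shift was present on each IRE1dn array. The median deviation of the 36 genes from their ctrl mean was -0.54, -0.48 and -0.44 on IRE1dn arrays 1, 2 and 3, and it was 0.04, -0.09 and 0.07 on ctrl arrays 1, 2 and 3, all on the log2 scale. Over all genes tested the same medians lay between -0.04 and 0.03 on the 6 arrays. The number of called genes depended on the arrays used: 6 fell without IRE1dn array 2, 9 without IRE1dn array 3 and 11 without IRE1dn array 1. Without the intensity trend in the variance 12 fell. The share of all genes called lower was 9.84%, 9.93%, 12.5% and 15.7% in these fits, in the same order, and 16.5% in the main fit. All 19 kept a value below 0 in each of the 18 alternatives run, and PSMA2, PSMA5, PSMD8 and PSME3 kept their call without each array in turn.

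**Figure D1:**
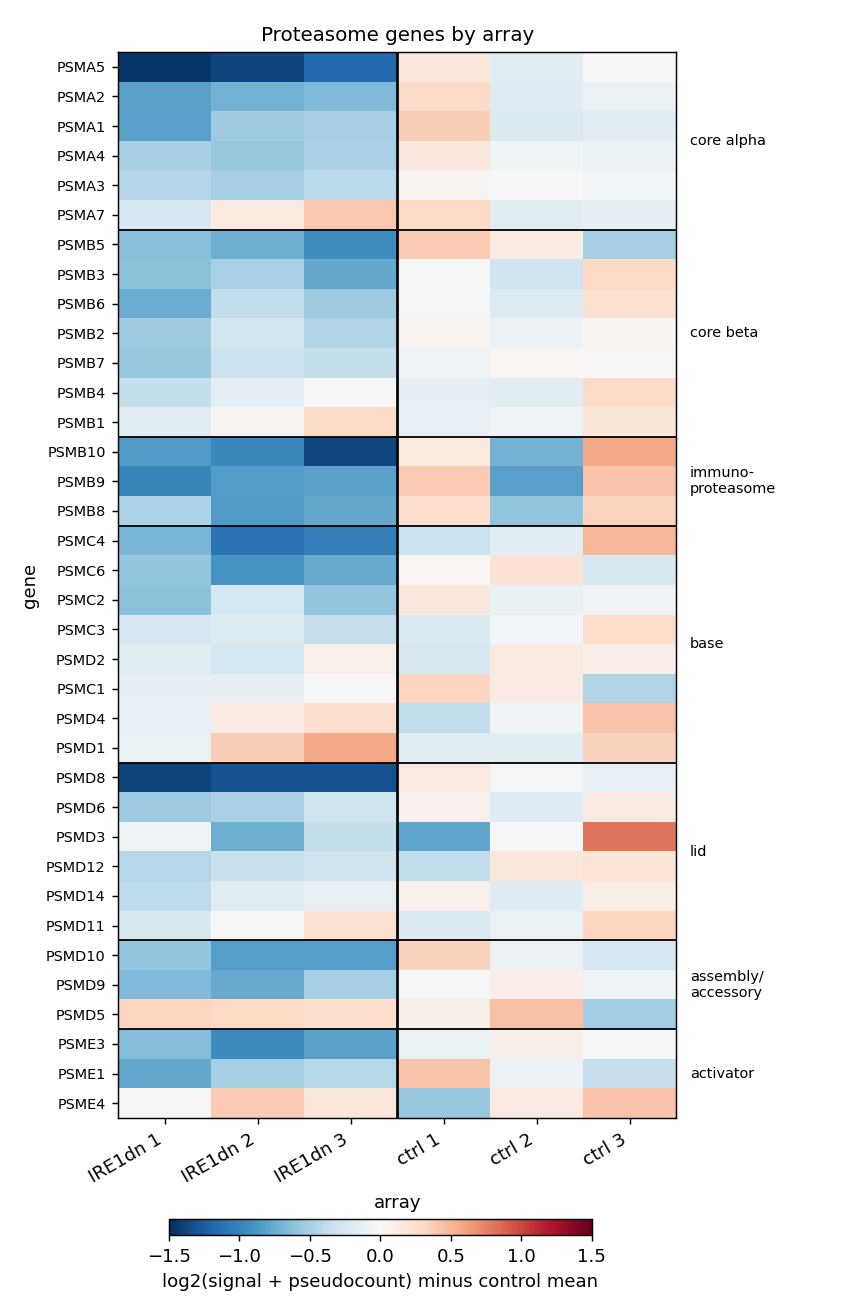
Each row is a proteasome gene and each column an array, IRE1dn left of ctrl. Colour is log2(signal + pseudocount) minus the gene's ctrl mean, from blue (lower) to red (higher), and lines part the classes. Most rows are blue on all 3 IRE1dn arrays, PSMA5 and PSMD8 most deeply, while PSMB8, PSMB9 and PSMB10 are also blue on ctrl array 2.

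PSMA5 and PSMD8 had the lowest values of the 36 and the lowest adjusted p. PSMA5 encodes an alpha subunit of the outer ring. Its signal was 365, 389 and 449 units on the IRE1dn arrays and 1134, 899 and 1008 units on the ctrl arrays, 39.6% of the ctrl mean (log2 change -1.33, SE 0.16, adjusted p = 0.000388). PSMD8 encodes a lid subunit, Rpn12 in yeast. It gave 411, 436 and 434 units on the IRE1dn arrays and 1185, 1067 and 993 units on the ctrl arrays, 39.5% of the ctrl mean (log2 change -1.33, SE 0.14, adjusted p = 0.000257). The lowest ctrl value lay far above the highest IRE1dn value for both genes, and each kept its call in all 18 alternatives.

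The promoters of these 2 genes are shown because they belong to the members that fell furthest. Each is the 250 bases before the transcription start in the RefSeq table, build GRCh38.p14, written 5′ to 3′ on the gene's strand. Capitals mark the motifs described next.
PSMA5, chr1:109426449-109426698, minus strand: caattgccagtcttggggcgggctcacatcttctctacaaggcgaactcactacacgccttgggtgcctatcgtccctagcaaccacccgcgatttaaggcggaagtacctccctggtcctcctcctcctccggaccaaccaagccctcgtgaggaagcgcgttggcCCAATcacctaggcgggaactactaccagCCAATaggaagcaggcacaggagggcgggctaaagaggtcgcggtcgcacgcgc
PSMD8, chr19:38374321-38374570, plus strand: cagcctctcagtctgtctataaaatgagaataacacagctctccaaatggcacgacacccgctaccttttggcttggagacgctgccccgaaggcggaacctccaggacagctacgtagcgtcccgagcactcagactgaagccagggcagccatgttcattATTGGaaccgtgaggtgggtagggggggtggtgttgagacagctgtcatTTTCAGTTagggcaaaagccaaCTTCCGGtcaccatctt
The PSMA5 window holds CCAAT, the box read by NF-Y, beginning 83 and 54 bases before the start. The PSMD8 window holds the same box on the opposite strand, beginning 88 bases before the start, and the ETS core CCGGAAG on the opposite strand, beginning 17 bases before it. It also holds, on the opposite strand, AANNGAAA, the core read by interferon regulatory factors, beginning 39 bases before the start.

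Windows were found for 31 of the 36 genes, 36 windows in all because 4 genes had more than 1, and 6 short motifs were searched on both strands. CCAAT was in 41.7% of the 36 windows and in 32.0% of all 35116 promoter windows of this length. CCGGAAG was in 19.4% and 8.52%. TGACNNNGC, the core of the antioxidant response element through which NFE2L1 drives proteasome genes, was in 25.0% and 10.9%. TGACGTG, the element bound by XBP1, was in 0 of the 36 windows and in 1.68% of all. It is so rare over all windows that 0 of 36 says little. Of the 17 genes with a window that fell, 11 held CCAAT, 8 AANNGAAA, 5 CCGGAAG, 4 TTCNNNGAA, the STAT palindrome, and 3 TGACNNNGC. Among all 31 genes with a window, 15, 9, 7, 6 and 9 held these motifs, in the same order. Over all promoter windows AANNGAAA was in 20.3% and TTCNNNGAA in 6.57%. Whether a motif went with the fall was not tested. TGACNNNGC and TGACGTG can overlap in their first 4 letters. A match is a string of letters, not a site shown to be bound.

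In the core particle, 10 of 13 constitutive genes fell and 0 rose (limma), with a median log2 change of -0.52. At an unadjusted p under 0.05 the counts were also 10 and 0. Over all genes tested, 16.5% were called lower and 17.9% higher, or 22.1% and 24.0% at an unadjusted p. Alpha and beta rings were alike in count: 5 of 6 alpha genes and 5 of 7 beta genes fell, with medians of -0.57 and -0.42. Their values ran from -1.33 for PSMA5 to 0.10 for PSMA7. The difference between the rings was not tested. The count of 10 depended on the arrays. It was 4, 3 and 5 without IRE1dn array 1, 2 or 3, 7 without ctrl array 1 or 2, and 6 without ctrl array 3. The share of all genes called lower was 12.5%, 9.84% and 9.93% without IRE1dn array 1, 2 or 3. It was 15.7%, 14.5% and 17.4% without ctrl array 1, 2 or 3.

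Among the alpha subunits, PSMA2 gave 803, 854 and 882 units on IRE1dn arrays and 1705, 1229 and 1312 units on ctrl arrays (log2 change -0.73, SE 0.16, adjusted p = 0.00730). PSMA1 gave 777, 942 and 968 units on IRE1dn arrays and 1772, 1179 and 1225 units on ctrl arrays (log2 change -0.62, SE 0.18, adjusted p = 0.0281). PSMA4 gave 785, 753 and 794 units on IRE1dn arrays and 1248, 1062 and 1041 units on ctrl arrays (log2 change -0.52, SE 0.14, adjusted p = 0.0184). In each of these the highest ctrl value was that of array 1, and the groups did not overlap. PSMA3, another alpha subunit, gave 1014, 973 and 1037 units on IRE1dn arrays and 1413, 1365 and 1338 units on ctrl arrays (log2 change -0.44, SE 0.13, adjusted p = 0.0227), with little spread in either group. The call of PSMA1 ended without any one IRE1dn array or ctrl array 1 (limma adjusted p of 0.0507 to 0.0971), the call of PSMA3 without IRE1dn array 1 or 2 (0.0572 to 0.114) and that of PSMA4 without IRE1dn array 2 (0.0890). The PSMA1 probe set used is of a design that may also read related transcripts. The brighter PSMA2 probe set is of a design shared by several transcripts. With the other PSMA2 probe set in its place the value was -0.51 and the call ended (limma adjusted p = 0.116).

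PSMA7 was the alpha gene with a value above 0, and its probe sets disagreed. The brighter one gave 1138, 1504 and 1794 units on IRE1dn arrays and 1673, 1219.6 and 1223 units on ctrl arrays (log2 change 0.10, SE 0.20, adjusted p = 0.729). The other averaged 489 units on IRE1dn arrays and 645 units on ctrl arrays. The 2 probe sets averaged together gave a log2 change of -0.13. The brighter PSMA7 probe set is of a design that may also read related transcripts.

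Of the beta subunits, PSMB3 gave 873, 961 and 788 units on IRE1dn arrays and 1338, 1093 and 1657 units on ctrl arrays (log2 change -0.62, SE 0.18, adjusted p = 0.0219). PSMB2 gave 686, 821 and 725 units on IRE1dn arrays and 1027, 937 and 1026 units on ctrl arrays (log2 change -0.42, SE 0.14, adjusted p = 0.0419). Both are structural subunits of the inner rings, and their groups did not overlap. The PSMB3 call ended without IRE1dn array 1 or 3 or ctrl array 3 (limma adjusted p of 0.0547 to 0.0747), and the PSMB2 call whichever single array was left out (0.0541 to 0.127). PSMB1 and PSMB4, the other non-catalytic beta subunits, did not pass, with log2 changes of 0.05 (SE 0.16) and -0.16 (SE 0.17), and their groups overlapped. The PSMB1 value was -0.028 when arrays were set to equal medians.

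**Figure D2:**
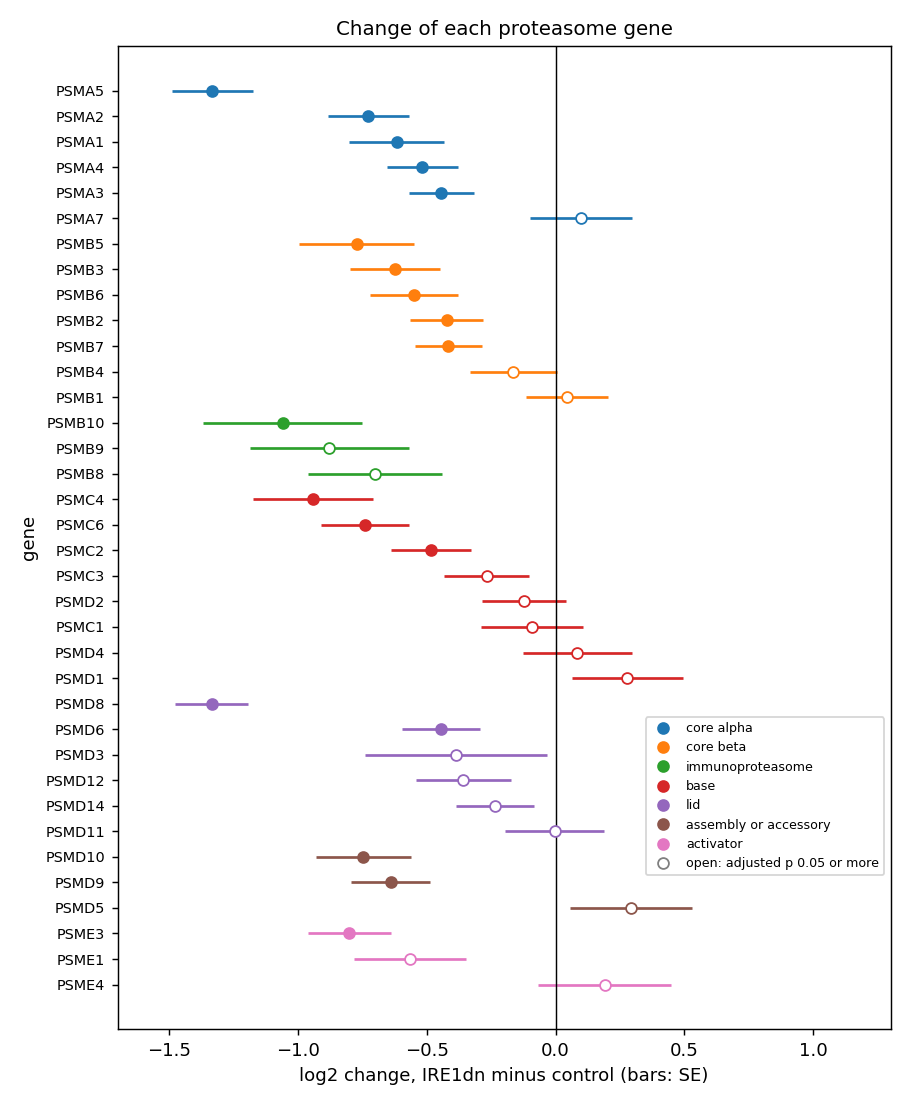
Log2 change, IRE1dn minus ctrl, of each of the 36 genes by class, with bars for the SE. Filled points passed a limma adjusted p under 0.05 and open points did not. The 19 filled points all lie left of 0, 10 of them among the 13 constitutive core genes.

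The catalytic subunits of the constitutive core fell. PSMB5, which carries the chymotrypsin-like activity, gave 558, 518 and 447 units on IRE1dn arrays and 1123, 944 and 609 units on ctrl arrays (log2 change -0.77, SE 0.22, adjusted p = 0.0240). PSMB6, the caspase-like subunit, gave 459, 593 and 529 units on IRE1dn arrays and 753, 669 and 903 units on ctrl arrays (log2 change -0.55, SE 0.17, adjusted p = 0.0317). PSMB7, the trypsin-like subunit, gave 1239, 1460.0 and 1431 units on IRE1dn arrays and 1772, 1876 and 1849.8 units on ctrl arrays (log2 change -0.42, SE 0.13, adjusted p = 0.0331). The groups did not overlap for any of the 3. The PSMB5 call ended without IRE1dn array 2 or 3 or ctrl array 1 or 2 (limma adjusted p of 0.0649 to 0.0918), the PSMB6 call without any one IRE1dn array or ctrl array 3 (0.0587 to 0.110) and that of PSMB7 without IRE1dn array 1 or 2 or ctrl array 2 or 3 (0.0670 to 0.105).

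The 3 immunoproteasome subunits had lower values in IRE1dn cells, with a median log2 change of -0.88, and PSMB10 alone passed (limma). At an unadjusted p under 0.05, 3 were lower and 0 higher, beside 22.1% and 24.0% of all genes tested. With 16.5% of all genes tested called lower, 1 call among 3 genes says little about the class. PSMB10 gave 82.6, 76.3 and 57.4 units on IRE1dn arrays and 166, 91.6 and 223 units on ctrl arrays (log2 change -1.06, SE 0.31, adjusted p = 0.0249). PSMB9 gave 82.9, 91.5 and 93.9 units on IRE1dn arrays and 217, 93.7 and 223 units on ctrl arrays (log2 change -0.88, SE 0.31, adjusted p = 0.0516). PSMB8 gave 129, 99.0 and 105 units on IRE1dn arrays and 215, 119 and 228 units on ctrl arrays (log2 change -0.70, SE 0.26, adjusted p = 0.0609).

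The groups overlapped for PSMB9 and PSMB8. Ctrl array 2 lay with the IRE1dn arrays for all 3 genes, while ctrl arrays 1 and 3 lay well above them: the median deviation of the 3 genes was -0.85, -0.85 and -0.81 on the IRE1dn arrays, and 0.26, -0.71 and 0.42 on ctrl arrays 1, 2 and 3. Without ctrl array 2 all 3 fell: PSMB8 passed with a limma adjusted p of 0.00742, PSMB9 had a log2 change of -1.28 (adjusted p = 0.00200) and PSMB10 of -1.41 (adjusted p = 0.00408). The PSMB10 call ended without IRE1dn array 2 or 3 or ctrl array 1 or 3 (limma adjusted p of 0.0514 to 0.105). The PSMB9 call was also gained with a pseudocount of 16 (0.0497), quantile normalization (0.0486), equal medians (0.0365) or a 60th percentile filter (0.0463), and that of PSMB8 with equal medians (0.0374). Without ctrl array 1 or ctrl array 3, 0 of the 3 genes passed. In these fits the limma adjusted p was 0.152 and 0.135 for PSMB8 and 0.147 and 0.116 for PSMB9. The calls thus depended on which control was left out.

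**Figure D3:**
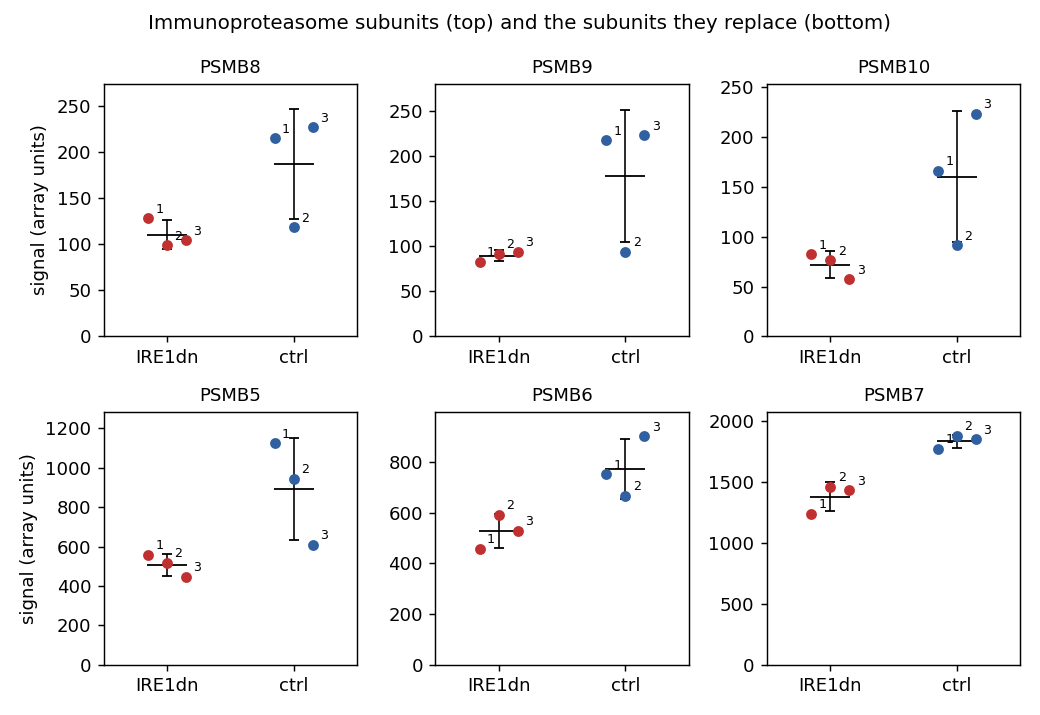
Signal in array units of the immunoproteasome subunits PSMB8, PSMB9 and PSMB10 (top) and of the subunits they replace, PSMB5, PSMB6 and PSMB7 (bottom). Points are arrays, numbered by replicate, IRE1dn in red left of ctrl in blue, and lines are the mean ± SD. Ctrl array 2 lies near the IRE1dn arrays in the top row, at 93.7 units for PSMB9, but not for PSMB5 or PSMB7.

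Whether the inducible subunits changed relative to the subunits they replace was asked within each array. The log2 ratio of PSMB8 to PSMB5 was 0.07 higher in IRE1dn cells, that of PSMB9 to PSMB6 changed by -0.33 and that of PSMB10 to PSMB7 by -0.64. The SD of these ratios was 0.16, 0.12 and 0.36 in IRE1dn cells and 0.79, 0.54 and 0.67 in ctrl cells (n = 3 each). None of the 3 changes passed (exact permutation tests, two-sided, p = 0.9, 0.4 and 0.3; 0.9, 0.6 and 0.6 after Benjamini-Hochberg adjustment over the 3 pairs), and 3 against 3 arrays cannot give a p below 0.1. Without ctrl array 2 the changes were -0.29, -0.63 and -1.01. The sign of the PSMB8 to PSMB5 ratio turned without that array and also, with all arrays, under quantile normalization (-0.0033). Without ctrl array 1 the 3 changes were 0.01, -0.12 and -0.55, and without ctrl array 3 they were 0.49, -0.23 and -0.37.

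The promoters of the inducible genes are shown with the interferon-related motifs that could be searched. PSMB9 lies on chromosome 6 in the MHC region head to head with the peptide transporter gene TAP1, and their nearest listed starts are 488 bases apart on opposite strands.
PSMB9, chr6:32853942-32854191, plus strand: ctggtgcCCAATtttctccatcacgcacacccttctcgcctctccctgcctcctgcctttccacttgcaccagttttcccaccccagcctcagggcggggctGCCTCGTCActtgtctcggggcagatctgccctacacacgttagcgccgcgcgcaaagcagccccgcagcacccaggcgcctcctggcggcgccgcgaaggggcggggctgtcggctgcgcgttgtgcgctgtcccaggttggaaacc
PSMB10, chr16:67936851-67937100, minus strand: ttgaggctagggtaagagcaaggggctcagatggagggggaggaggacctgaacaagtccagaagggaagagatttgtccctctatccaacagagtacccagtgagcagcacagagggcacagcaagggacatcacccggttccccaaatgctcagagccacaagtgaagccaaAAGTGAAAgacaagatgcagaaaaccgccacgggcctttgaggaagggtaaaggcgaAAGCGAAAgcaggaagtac
PSMB8, chr6:32844048-32844297, minus strand: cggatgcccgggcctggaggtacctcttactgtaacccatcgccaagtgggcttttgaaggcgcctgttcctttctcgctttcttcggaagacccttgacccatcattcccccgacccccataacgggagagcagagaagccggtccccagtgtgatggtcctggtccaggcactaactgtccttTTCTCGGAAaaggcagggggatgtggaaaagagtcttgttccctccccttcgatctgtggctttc
AANNGAAA begins 76 and 19 bases before the PSMB10 start. It was in 25.0% of the 36 windows and in 20.3% of all, and it is a short motif common in promoters of this length. TTCNNNGAA begins 65 bases before the listed PSMB8 start. It was in 16.7% of the 36 windows and in 6.57% of all. The other listed PSMB8 window held none of the 6 motifs. The PSMB9 window holds TGACNNNGC on the opposite strand, beginning 148 bases before the start, and CCAAT, beginning 243 bases before it.

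In the regulatory particle, 5 of 14 genes fell and 0 rose (limma), with a median log2 change of -0.31. At an unadjusted p under 0.05 the counts were also 5 and 0. The shares over all genes tested were 16.5% lower and 17.9% higher, or 22.1% and 24.0% at an unadjusted p. The base had 3 of 8 lower, with a median of -0.20, and the lid 2 of 6, with a median of -0.37. These counts hold only genes with PSMC or PSMD symbols. The lid subunit SEM1 has another symbol, also fell (log2 change -0.64, limma adjusted p = 0.0272) and is counted with the cofactors below. The per-array medians of the 14 genes were -0.32, -0.26 and -0.30 on IRE1dn arrays, and -0.20, -0.05 and 0.16 on ctrl arrays. Ctrl array 1 thus lay close to the highest IRE1dn array for this class, whereas for the 13 core genes the IRE1dn medians of -0.56, -0.48 and -0.49 lay well below the lowest ctrl median of -0.15. The difference between core and regulatory particle was not tested. Without IRE1dn array 2 or 3, 1 base and 1 lid gene fell, without IRE1dn array 1, 2 base genes and 1 lid gene, and without ctrl array 3, 1 lid gene. The share of all genes called lower in these fits was 9.84% to 17.4%.

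The genes of the base that fell encode ATPases of its ring. PSMC4 gave 260.0, 193 and 203 units on IRE1dn arrays and 334, 370.4 and 591 units on ctrl arrays (log2 change -0.94, SE 0.23, adjusted p = 0.0131). PSMC6 gave 515, 414 and 455 units on IRE1dn arrays and 784, 889.7 and 650.2 units on ctrl arrays (log2 change -0.74, SE 0.17, adjusted p = 0.00910). PSMC2 gave 897, 1148 and 920.0 units on IRE1dn arrays and 1550.2, 1268 and 1319.7 units on ctrl arrays (log2 change -0.48, SE 0.15, adjusted p = 0.0364). The groups did not overlap for these 3, although IRE1dn array 2 came close to ctrl array 2 for PSMC2. The call of PSMC4 ended without IRE1dn array 2 or 3 (limma adjusted p of 0.0581 to 0.0582), the call of PSMC6 without IRE1dn array 2 (0.0528) and that of PSMC2 without IRE1dn array 1 or 3 or ctrl array 1 (0.0878 to 0.112). The second PSMC2 probe set showed a smaller difference, and used alone it gave -0.17 (limma adjusted p = 0.555).

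The ATPase genes PSMC1 and PSMC3 did not pass, with log2 changes of -0.09 (SE 0.20) and -0.27 (SE 0.16). PSMC1 gave 876, 880.5 and 966 units on IRE1dn arrays and more scattered values of 1209, 1058 and 706 units on ctrl arrays. The scaffold subunits PSMD1 and PSMD2 and the ubiquitin receptor PSMD4 did not pass either. PSMD1 gave 459, 635 and 727 units on IRE1dn arrays and 435, 437 and 623 units on ctrl arrays (log2 change 0.28, SE 0.22, adjusted p = 0.342). PSMD2 had a log2 change of -0.12 (SE 0.16) and PSMD4 of 0.08 (SE 0.21), and their groups overlapped. The PSMD4 probe set used may also read related transcripts by its design.

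Apart from PSMD8, PSMD6 was the lid gene with a PSMD symbol that fell. It gave 647, 676 and 769.7 units on IRE1dn arrays and 993, 828 and 1032 units on ctrl arrays (log2 change -0.44, SE 0.15, adjusted p = 0.0465). Its groups did not overlap, but its call ended without any one IRE1dn array or ctrl array 1 or 3 (limma adjusted p of 0.0581 to 0.159). PSMD14, the deubiquitinating enzyme of the lid, gave 796, 920.0 and 961 units on IRE1dn arrays and 1106, 918 and 1131 units on ctrl arrays (log2 change -0.23, SE 0.15, adjusted p = 0.253), and the groups overlapped by IRE1dn arrays 2 and 3. The lid subunits PSMD12, PSMD3 and PSMD11 had log2 changes of -0.36 (SE 0.18), -0.39 (SE 0.35) and -0.0030 (SE 0.19). PSMD12 passed without ctrl array 1, with a log2 change of -0.54 (limma adjusted p = 0.0204), but without ctrl array 3 its value was -0.26 (limma adjusted p = 0.322). PSMD3 had the largest SE of the 36 genes, at 221, 138 and 179 units on IRE1dn arrays and 134, 228 and 404 units on ctrl arrays, and its value was 0.015 without ctrl array 3.

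The PSMD symbols also hold 3 chaperones that help assemble the base and are not part of the finished particle, and 2 of them fell. Over all genes tested 16.5% were called lower, and 3 genes are few for reading a class. PSMD10, the oncoprotein gankyrin, gave 480.4, 402 and 402 units on IRE1dn arrays and 911, 674 and 600.0 units on ctrl arrays (log2 change -0.75, SE 0.19, adjusted p = 0.0132). PSMD9 gave 291, 273 and 327 units on IRE1dn arrays and 453, 497 and 439.6 units on ctrl arrays (log2 change -0.64, SE 0.15, adjusted p = 0.0115). The groups of both were apart. The PSMD10 call ended without IRE1dn array 2 or 3 (limma adjusted p of 0.0547 to 0.0605) and the PSMD9 call without IRE1dn array 2 (0.0706) or with the mean of its probe sets (0.0532). PSMD5 did not pass: it gave 233, 229.9 and 222 units on IRE1dn arrays and 198, 253 and 129 units on ctrl arrays (log2 change 0.29, SE 0.24, adjusted p = 0.365).

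Activators cap the core in place of the regulatory particle, and 1 of 3 measured fell. As 16.5% of all genes tested were called lower, this count is not a result about the class. PSME3, the nuclear activator PA28 gamma, gave 258, 208 and 232 units on IRE1dn arrays and 377, 431 and 408 units on ctrl arrays (log2 change -0.80, SE 0.16, adjusted p = 0.00503). The PSME3 probe set used is of a design that may also read related transcripts. The 4 PSME3 probe sets did not all go the same way. Of these, 3 were lower in IRE1dn cells, and 1 averaged 72.9 units on IRE1dn arrays and 57.5 units on ctrl arrays. With the mean of the 4 the value was -0.45 and the call ended (limma adjusted p = 0.0568). PSME1, the interferon-inducible PA28 alpha, gave 241, 289.7 and 304 units on IRE1dn arrays and 555, 388 and 322 units on ctrl arrays (log2 change -0.57, SE 0.22, adjusted p = 0.0680). Its groups did not overlap but it missed the threshold. It passed without ctrl array 3 (-0.74, limma adjusted p = 0.0187), but without ctrl array 1 its value was -0.35 (limma adjusted p = 0.151). PSME4, PA200, gave 121, 156 and 135 units on IRE1dn arrays and 80.4, 132 and 161 units on ctrl arrays (log2 change 0.19, SE 0.26, adjusted p = 0.599), and the groups overlapped.

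The 2 genes that match in letters only went the other way in value. PSMC3IP, a partner of meiotic and recombination proteins, gave 100.1, 94.2 and 121 units on IRE1dn arrays and 39.6, 57.5 and 75.5 units on ctrl arrays and rose (log2 change 0.89, SE 0.25, adjusted p = 0.0224). Its call ended without any one IRE1dn array (limma adjusted p of 0.0548 to 0.0948). PSME3IP1 did not pass, with a log2 change of 0.22 (SE 0.18).

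Of the 36 genes, 15 had more than 1 probe set, and 19 probe sets that were not chosen lay above the filter level. 13 of these went in the direction of the chosen probe set and 6 in the other, 1 each for PSMA7, PSMB1, PSMD1, PSMD4, PSME3 and PSME4. Besides PSME3, these genes did not pass. The proteasome symbols PSMA6 and PSME2, read by probe sets with several symbols, and PSMA8, PSMB11, PSMC5, PSMD7 and PSMD13 were not used here.

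Of 20 tested assembly factors, cofactors and regulators, 5 fell and 2 rose, with a median log2 change of -0.04, not far from the 16.5% lower and 17.9% higher over all genes tested. POMP, the chaperone that drives assembly of the core, gave 712, 763 and 803 units on IRE1dn arrays and 1322, 1143 and 1419.8 units on ctrl arrays (log2 change -0.76, SE 0.14, adjusted p = 0.00380). TXNL1, a thioredoxin-like protein bound to the lid, gave 407, 405 and 414 units on IRE1dn arrays and 757, 626 and 931 units on ctrl arrays (log2 change -0.90, SE 0.17, adjusted p = 0.00420). The groups were apart for both. The other 3 that fell were the core assembly chaperone PSMG1, the lid subunit SEM1 and the assembly factor PAAF1, with log2 changes of -0.61, -0.64 and -0.55; these 3 were named after their values were seen.

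The 2 that rose were IPO9 and PSMF1. IPO9, an importin that carries proteasomes into the nucleus, gave 308, 323 and 401 units on IRE1dn arrays and 156, 169 and 185 units on ctrl arrays (log2 change 1.00, SE 0.17, adjusted p = 0.00264). PSMF1, a proteasome inhibitor also called PI31, gave 268, 306 and 261 units on IRE1dn arrays and 145, 227 and 158 units on ctrl arrays (log2 change 0.68, SE 0.20, adjusted p = 0.0277). The PSMF1 call ended without any one IRE1dn array or ctrl array 1 (limma adjusted p of 0.0614 to 0.120) and with the mean of its probe sets (0.153). NFE2L1, the transcription factor that restores proteasome genes when the proteasome is inhibited, and its relative NFE2L2 did not pass, with log2 changes of 0.11 (SE 0.26) and 0.18 (SE 0.25).

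Of 9 tested ubiquitin genes, conjugating enzymes and extraction factors, 2 fell and 0 rose (limma; 2 lower and 1 higher at an unadjusted p under 0.05), with a median of 0.11. These counts are near the shares over all genes tested, 16.5% lower and 17.9% higher, or 22.1% and 24.0% at an unadjusted p. UBE2S, a conjugating enzyme of the anaphase-promoting complex, gave 819, 560.4 and 606 units on IRE1dn arrays and 885, 1257 and 1510.1 units on ctrl arrays (log2 change -0.86, SE 0.22, adjusted p = 0.0150). VCP, the segregase that extracts ubiquitinated proteins, gave 577, 566 and 611 units on IRE1dn arrays and 829, 929.8 and 674 units on ctrl arrays (log2 change -0.46, SE 0.16, adjusted p = 0.0498). The UBE2S call ended without IRE1dn array 2 or 3 (limma adjusted p of 0.0570 to 0.0660) and the VCP call without any one IRE1dn array or ctrl array 1 or 2 (0.0841 to 0.164). The ubiquitin gene UBB did not pass, at 2738, 3489.7 and 4683 units on IRE1dn arrays and 2965, 2494 and 2889.6 units on ctrl arrays.

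Class I antigen presentation genes, which use the peptides made by the proteasome, ran the other way in count. Of 14 tested, 6 rose and 1 fell, with a median of 0.42, beside 17.9% higher and 16.5% lower over all genes tested. HLA-C gave 2249.9, 2081 and 2486 units on IRE1dn arrays and 812, 978 and 1652 units on ctrl arrays (log2 change 1.05, SE 0.24, adjusted p = 0.00843). HLA-G had a log2 change of 1.28 (SE 0.34, adjusted p = 0.0180) and HLA-B of 0.88 (SE 0.21, adjusted p = 0.0120). Ctrl array 3 was the highest control for all 3. These HLA probe sets are of a design that may also read related transcripts, so they are not 3 separate measurements. HLA-E (log2 change 0.51, limma adjusted p = 0.0400) and PDIA3 (0.77, adjusted p = 0.00648) also rose and were named after their values were seen. The HLA-E probe set is of the same design, so the count of 6 is not of 6 separate measurements. The median of 0.42 shares this limit. TAPBP, the peptide-loading chaperone tapasin, gave 205, 176 and 184 units on IRE1dn arrays and 116, 101 and 89.7 units on ctrl arrays (log2 change 0.88, SE 0.18, adjusted p = 0.00534), but with the mean of its 2 probe sets the value was 0.40 and the call ended (limma adjusted p = 0.144). The HLA-G call ended without IRE1dn array 1 or 3 (limma adjusted p of 0.0516 to 0.0663).

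TAP1, the neighbour of PSMB9, had values below 0 as PSMB9 did and did not pass either, at 47.2, 39.8 and 31.5 units on IRE1dn arrays and 49.6, 63.8 and 87.3 units on ctrl arrays (log2 change -0.72, SE 0.26, adjusted p = 0.0579). ERAP1, the peptide-trimming enzyme and the list member that fell, was named after its values were seen (log2 change -0.80, SE 0.25, adjusted p = 0.0354). B2M, the light chain shared by class I molecules, gave 3019, 3452 and 3485 units on IRE1dn arrays and 2947, 2635 and 2995 units on ctrl arrays and did not pass (log2 change 0.21, SE 0.12, adjusted p = 0.209).

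Of 13 tested interferon signalling genes, 2 fell and 1 rose, with a median of -0.03, close to the 16.5% lower and 17.9% higher over all genes tested, so the genes named next are single values and not a shift of the list. JAK2, a kinase of the interferon gamma receptor, gave 35.0, 36.0 and 24.3 units on IRE1dn arrays and 77.0, 59.0 and 44.1 units on ctrl arrays (log2 change -0.87, SE 0.27, adjusted p = 0.0306). The receptor chain IFNGR1 gave 103, 94.3 and 87.3 units on IRE1dn arrays and 155, 155 and 141 units on ctrl arrays (log2 change -0.66, SE 0.17, adjusted p = 0.0164). The other chain, IFNGR2, gave 248, 370.5 and 248 units on IRE1dn arrays and 169.7, 192 and 201 units on ctrl arrays (log2 change 0.60, SE 0.20, adjusted p = 0.0435) and rose. The groups were apart for the 3 genes. The calls of JAK2 and IFNGR2 ended without any one IRE1dn array or ctrl array 1 or 2 (limma adjusted p of 0.0589 to 0.118 for JAK2 and 0.0600 to 0.208 for IFNGR2). The IFNGR1 call ended without IRE1dn array 2 or 3 (0.0739 to 0.0778). The JAK2 call also ended with its other probe set (log2 change -0.80, limma adjusted p = 0.126), the mean of both (0.0532) and no filter (0.0605). That of IFNGR2 also ended with equal medians (limma adjusted p = 0.0737), no filter (0.0576) and no intensity trend (0.0585). IRF1, which switches on PSMB9 and TAP1, did not pass, with a log2 change of -0.28 (SE 0.23).

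**Figure D4:**
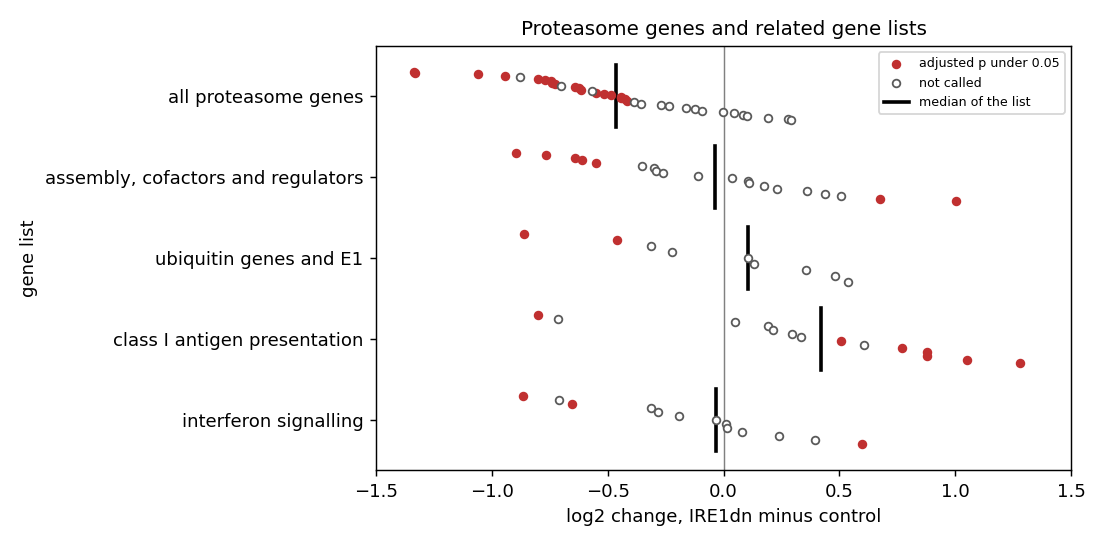
Log2 change, IRE1dn minus ctrl, of the 36 proteasome genes and of 4 related lists. Each point is a gene, red where the limma adjusted p was under 0.05, and the black bar is the list median. The proteasome genes have a median of -0.46 and no red point right of 0, while the class I list has a median of 0.42.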

How the data were processed

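RNA of 6 samples was hybridised to 1 Affymetrix array each. The authors deposited a linear intensity for each of 22277 probe sets, and the values show that each array had been scaled to a trimmed mean of 100.0. Per the submitters' processing notes the software was GCOS 1.2. How probes were summarised is not stated in the labels, and the number of arrays limits the precision.

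Tests used log2(signal + 1.75), where the added constant is the 20th percentile of all values, which slightly understates changes of dim genes. Names came from the platform annotation (19064 probe sets with 1 symbol, 1043 with several, 2108 with none, 62 controls), updated by identifier to RefSeq for 19052. The brightest probe set stood for each of 11964 genes, and the 7178 genes above the 40th percentile of mean signal (13.0 units) were tested with limma 3.58.1 in R 4.3.3 (lmFit, eBayes with intensity trend, no covariate, two-sided). The fit was tested on simulated data.

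Genes with values in every array were the immunoproteasome subunits, their partners, the activators and the other members past the threshold. Up to 4 called genes of each related list were named by size of change. Members and lists were chosen with earlier results of these data known, and the promoters shown and the motifs after the values were seen. Alternatives covered pseudocount, scaling, filter, probe set, variance model, replicate block and arrays left out.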

Additional observations from a re-analysis of the deposited data

How the results depend on the processing

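The median log2 change of the 36 proteasome genes stayed below 0 in all 18 alternatives. It was -0.54 with arrays set to equal medians, which moved the median of all genes to -0.06, and -0.54 to -0.43 without each array in turn. The number that fell was 12 without the intensity trend, 14 with no filter, 15 with the mean of probe sets, 6 to 18 without each array in turn and 8 without ctrl array 2 and IRE1dn array 3 together; 0 rose in any of these. Over all genes 1446 to 2662 were called without each array in turn and 1184 without those 2 together, and 2468 with all arrays. Those called lower were 9.84% to 17.4% of all genes without each array in turn and 7.55% without those 2 together. They were 15.7% without the intensity trend, 9.31% with no filter and 16.2% with the mean of probe sets, beside 16.5% in the main fit. Of the genes called with all arrays, those called lower were 48.0%, and 55.3% with equal medians.

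Besides arrays left out, calls ended without the intensity trend for PSMA1, PSMA3, PSMB2, PSMB6, PSMB7, PSMC2 and PSMD6, with no filter for PSMA1, PSMB2, PSMB7, PSMC2 and PSMD6, with array weights for PSMB2, PSMB6 and PSMC2, with the mean of probe sets for PSMB2, PSMC2, PSMD9 and PSME3, and with quantile normalization for PSMD6; the cause was not tested. Replicate numbers did not pair the arrays: deviations of same-numbered arrays correlated at -0.10, 0.06 and 0.02. With the replicate number as a block 16 genes fell and 0 rose, 14 of them among the 19 and the others PSMB8 (limma adjusted p = 0.0415) and PSMB9 (0.0422), so 3 immunoproteasome genes fell, and 2276 genes were called in all.

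The log2 ratio of PSMB8 to PSMB5 turned to -0.0033 with quantile normalization and to -0.29 without ctrl array 2, and lay between -0.34 and 0.49 over the 7 fits with arrays left out, those 2 together included. Genes near 0 that did not pass changed sign. Over the same 7 fits the log2 change lay between -0.13 and 0.28 for PSMA7, -0.10 and 0.16 for PSMB1, -0.17 and 0.16 for PSMD11, -0.10 and 0.30 for PSMD4, -0.32 and 0.069 for PSMC1, -0.78 and 0.015 for PSMD3, and -0.091 and 0.40 for PSME4. With the mean of probe sets PSMA7 was -0.13 and PSMB1 -0.13. With equal medians PSMB1 was -0.028. PSMD11 was 0.033 with quantile normalization and 0.0071 with array weights. The cause was not tested.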

Other observations

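The controls were the more variable group for proteasome genes, as they were for genes in general. The median SD of a gene on the log2 scale was 0.16 among IRE1dn arrays and 0.26 among ctrl arrays for the 36 genes, and 0.17 and 0.29 over all genes tested. The larger SD was in the controls for 27 of the 36 genes (75%), against 70.9% of all genes.

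The arrays of a group differed by class. IRE1dn array 1 was the lowest of its group for 21 of the 36 genes and IRE1dn array 3 the highest for 19. Among the controls, array 1 led the alpha subunits, with a median of 0.23 above their ctrl mean. Array 3 led the beta subunits, the immunoproteasome, the base and the lid, with 0.18, 0.42, 0.18 and 0.16. Array 2 led the accessory genes and the activators, with 0.10 and 0.09.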
